A study of Mus musculus with 27 samples.

Results

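A set of 10 genes of the classical and non-classical MHC class I pathway and its peptide loading machinery were followed across sorted colon mononuclear phagocytes and splenic CD4 T cells of WT and Mbd2-/- mice. They were taken by symbol as 10 of the 30869 symbols on the Illumina mouse BeadChip and comprised the heavy chains H2-K1, H2-D1, H2-T23, H2-Q7, H2-T10 and H2-M3, the light chain B2m, the peptide transporter subunits Tap1 and Tap2, and the bridging chaperone Tapbp. The 10 genes had 22 of the 45281 probes, of which 20 were detected well enough to be tested in at least 1 genotype comparison. Where a gene had several probes, its brightest tested probe is given as the reference probe, and the others are named where they differ.

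MHC class I molecules display peptides from inside the cell to CD8 T cells and to NK cells. Peptides made by the proteasome are carried into the endoplasmic reticulum by the TAP transporter, a dimer of the Tap1 and Tap2 products, and are loaded with the help of tapasin, the Tapbp product, onto heavy chains paired with beta-2 microglobulin. H2-K1 and H2-D1 encode the classical chains. H2-T23 encodes Qa-1, which presents leader peptides to NK cell receptors, H2-Q7 encodes a Qa-2 chain, and H2-M3 presents N-formylated peptides, a class that bacteria make. H2-T10 belongs to the H2-T cluster and is annotated as a transcribed pseudogene in the RefSeq table used here. Interferons induce most of these genes. Dendritic cells of the cDC1 type are known for presenting engulfed antigen on class I.

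By the methods, mice were on the C57BL/6 background. Mbd2 encodes a protein that binds methylated DNA, and Mbd2-/- mice lacked it in every cell, so no genotype difference here can be assigned to the sorted cell itself. Colon cells came from mice given 2% dextran sulfate sodium (DSS), a chemical that injures the colon lining, in drinking water for 6 days. The mice were matched for age and sex, were 8 to 22 weeks old and were housed with WT littermates where possible. Monocytes (CD11b+Ly6C+), macrophages (CD11b+Ly6C-MHC-II+F4/80+) and cDC1s (CD11b-CD11c+CD103+) were sorted from the lamina propria, with 5 arrays per genotype for monocytes, 5 per genotype for macrophages, and 2 WT and 3 Mbd2-/- arrays for cDC1s. CD4 T cells came from the spleen 6 weeks after T cell transfer colitis, with 1 array per genotype, and whether the genotype is that of the donor or the host is not given in the sources used here. Arrays are named below by the numbers in their labels. Each array is a pool of 1 to 10 mice by the methods, or of 1 to 5 by the deposited record, from 3 experiments.

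The 1 Mbd2 probe was detected on 0 of the 27 arrays, so it could not check the genotype labels. The cell type markers followed the labels, with the macrophage list between 11.19 and 11.60 (mean log2 intensity) on macrophage arrays and between 6.66 and 10.08 on other colon arrays. The CD4 T cell list read 8.32 and 6.73 on WT cDC1 arrays 23 and 26, and 7.45, 8.31 and 6.25 on Mbd2-/- cDC1 arrays 27, 28 and 30. On monocyte and macrophage arrays it lay between 5.54 and 6.80, and on the T cell arrays it read 11.75 and 11.83. The part of T cell RNA in the cDC1 values was not tested. Epithelial markers were present in both genotypes, with 8 or 9 of 9 detected on every colon array and a list mean between 7.72 and 9.56. In these bulk samples, fewer cells of a type and less RNA per cell cannot be told apart. The array of WT cDC1 sample 23 had noisier negative controls, with a standard deviation of 16.5 against 2.81 to 6.69 intensity units on all others. The data table lists arrays in runs of 6 columns, and each monocyte and macrophage run held both genotypes. Neither the labels nor the table says that a run is a chip, so the runs are used below as groups of columns only.

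The sequences upstream of 4 members are shown because they cover the range of responses described below: H2-Q7 and H2-M3 had the smallest adjusted p among the reference probes in macrophages, Tap1 was called in both monocytes and macrophages, and B2m was called in neither. They are the RefSeq mouse sequences of build GRCm38.p6, plus strand, ending at the base before the start given for each promoter. They lie at chr17:35438905-35439154 for H2-Q7, chr17:37269984-37270233 for H2-M3, chr17:34187331-34187555 for Tap1 and chr2:122147437-122147686 for B2m. The gene annotation starts H2-Q7 at 35439140, so the last bases of its stretch lie inside the annotated gene. For Tap1 the 225 bases between its start and that of Psmb9, a neighbouring immunoproteasome gene read from the opposite strand, are shown. Capitals mark matches on either strand to GAA, any 2 bases and GAAAC (a form of the core of the interferon-stimulated response element). They also mark TTC, any 3 bases and GAA (the gamma-activated site), GGGA, any 4 bases and CC (the kappa B site), TGACG (the CRE-like part of the class I X box) and CCAAT. Other forms of the interferon element were not searched.
H2-Q7: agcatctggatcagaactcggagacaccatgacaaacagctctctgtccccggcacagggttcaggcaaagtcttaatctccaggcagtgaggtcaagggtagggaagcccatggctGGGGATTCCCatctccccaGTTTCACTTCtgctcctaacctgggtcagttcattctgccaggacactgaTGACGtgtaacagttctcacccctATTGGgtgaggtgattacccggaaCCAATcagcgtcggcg
H2-M3: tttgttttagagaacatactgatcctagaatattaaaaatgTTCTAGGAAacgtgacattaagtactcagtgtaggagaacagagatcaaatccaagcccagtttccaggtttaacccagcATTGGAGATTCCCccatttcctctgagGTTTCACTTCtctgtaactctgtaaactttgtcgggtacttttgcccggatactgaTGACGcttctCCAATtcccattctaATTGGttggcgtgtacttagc
Tap1: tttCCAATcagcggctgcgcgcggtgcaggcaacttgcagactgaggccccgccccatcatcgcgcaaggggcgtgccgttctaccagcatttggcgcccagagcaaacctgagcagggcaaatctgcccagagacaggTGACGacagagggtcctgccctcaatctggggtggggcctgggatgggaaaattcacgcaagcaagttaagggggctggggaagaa
B2m: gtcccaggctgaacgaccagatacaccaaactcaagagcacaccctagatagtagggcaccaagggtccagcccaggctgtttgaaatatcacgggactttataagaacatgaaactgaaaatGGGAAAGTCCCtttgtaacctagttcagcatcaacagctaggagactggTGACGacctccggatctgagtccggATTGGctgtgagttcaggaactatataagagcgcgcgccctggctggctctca

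Entries were found for 8 of the 10 members, all but H2-T10 and Tap2. In the 250 bases before the start, the searched form of the interferon element was present in 4 of the 8, against 1.45% of all 32851 promoters searched. The 4 were H2-K1, H2-D1, H2-Q7 and H2-M3. Genes without this form may hold another: the B2m stretch has gaaactgaaaa before its kappa B match, which the searched form cannot match. A gamma-activated site was in H2-M3 alone of the 8, against 7.02% of promoters. The kappa B site was in 5 of 8 against 17.6%, TGACG in 6 of 8 against 17.8%, and CCAAT in 8 of 8 against 33.8%. As printed above, H2-Q7 and H2-M3 each hold a kappa B match upstream of an interferon element match, with TGACG and CCAAT nearer the start, whereas Tap1 holds only TGACG and CCAAT in the stretch shown. In H2-M3 a CCAAT match on the opposite strand overlaps the kappa B match, and they share 1 run of capitals. Where the annotation places the genes, 9 of the 10 lie on chromosome 17 between 33919478 (Tapbp) and 37274485 (H2-M3), and B2m lies on chromosome 2. Letters that match a motif do not show that a factor bound there in these cells.

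In monocytes from inflamed colon, the peptide transporter genes were higher in Mbd2-/- mice. Tap1 rose by 0.89 on the log2 scale (SE 0.21, 95% interval 0.46 to 1.32, adjusted p = 0.0231, limma), a 1.85-fold difference, and Tap2 rose by 0.61 (SE 0.16, adjusted p = 0.0444). These were 2 of 19 member probes tested, where 1.06% of all 16190 probes were called higher. Of the 19, 14 had an unadjusted p under 0.05, against 15.4% of all probes. The log2 difference was above 0 for all 19, with a median of 0.51 over the 10 reference probes against -0.02 over all probes, although when arrays were scaled to 1 median, not quantile normalized, it was above 0 for 15 of the 19, where the median of all probes moved to -0.26 and no member was called.

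Tap1 log2 intensities were 9.89, 9.03, 9.27, 10.07 and 10.11 on WT monocyte arrays 1 to 5, and 10.50, 10.38, 10.71, 10.37 and 10.84 on Mbd2-/- arrays 6 to 10. Every Mbd2-/- array was above every WT array. Tap2 read 10.24, 9.83, 10.08, 10.91 and 10.72 on WT arrays 1 to 5 and 10.81, 11.01, 10.89, 10.80 and 11.31 on Mbd2-/- arrays 6 to 10. Here the groups overlapped, since WT array 4 lay above 3 of the 5 Mbd2-/- arrays. WT arrays 2 and 3 were the lowest for both transporter genes.

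No heavy chain passed the adjusted threshold in monocytes. At the reference probes, H2-T23 differed by 0.63 (SE 0.19, adjusted p = 0.0813), H2-Q7 by 0.57 (SE 0.17, adjusted p = 0.0865), H2-T10 by 0.44 (adjusted p = 0.185) and H2-M3 by 0.40 (SE 0.12, adjusted p = 0.0777). The classical chains H2-K1 and H2-D1 differed by 0.10 and 0.14, with 95% intervals of -0.20 to 0.40 and -0.11 to 0.38, and B2m by 0.17 (interval 0.01 to 0.33). Other probes of the classical chains gave larger values, with 0.65 (interval 0.08 to 1.22, adjusted p = 0.247) at the dim H2-K1 probe and 0.43 (interval -0.08 to 0.95, adjusted p = 0.431) at the second H2-D1 probe. Tapbp differed by 1.50, with a wide interval of 0.27 to 2.73 and an adjusted p of 0.204, and by 0.55 at its second probe (adjusted p = 0.421). In H2-T23, the values were 12.34, 11.94, 11.93, 12.33 and 12.53 on WT arrays 1 to 5 and 12.64, 13.01, 12.67, 12.81 and 13.11 on Mbd2-/- arrays 6 to 10. For H2-Q7 they were 10.86, 10.40, 10.54, 10.61 and 10.95 on WT and 11.01, 11.39, 11.07, 11.26 and 11.50 on Mbd2-/- arrays. As for Tap1, neither gene's groups overlapped. In all, 5 member probes of 19 had every Mbd2-/- monocyte array above every WT array, against 1.98% of all probes.

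The monocyte calls changed with the arrays in the fit. Leaving out 1 array at a time gave 0 to 3 called member probes: 0 without WT array 2, WT array 3, Mbd2-/- array 8 or Mbd2-/- array 10, and 1 without WT array 1, Mbd2-/- array 7 or Mbd2-/- array 9. Tap1 passed in 6 and Tap2 in 2 of the 10 fits. The number of all probes called also changed over these fits, from 183 to 523, against 383 with every array. When monocyte arrays were normalized and fitted alone, 3 member probes were called, but Tap1 (adjusted p = 0.0548) and Tap2 (0.12) were not among them, whereas H2-T23 (0.0398) and H2-Q7 (0.0388) were. The NK cell marker list was lower on the Mbd2-/- monocyte arrays (5.27 to 5.51) than on the WT arrays (5.68 to 6.10). Of its 4 genes, Klrd1 differed most, with means of 7.54 in WT and 6.01 in Mbd2-/- monocytes. Prf1 read 7.14 and 6.77, and Ncr1 and Klrb1c were mostly undetected. The B and plasma cell list was also lower (6.63 to 6.97 against 7.03 to 7.41), and it counts the same probe as both Igj and Jchain. The part of these in the class I values was not tested.

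**Figure D1:**
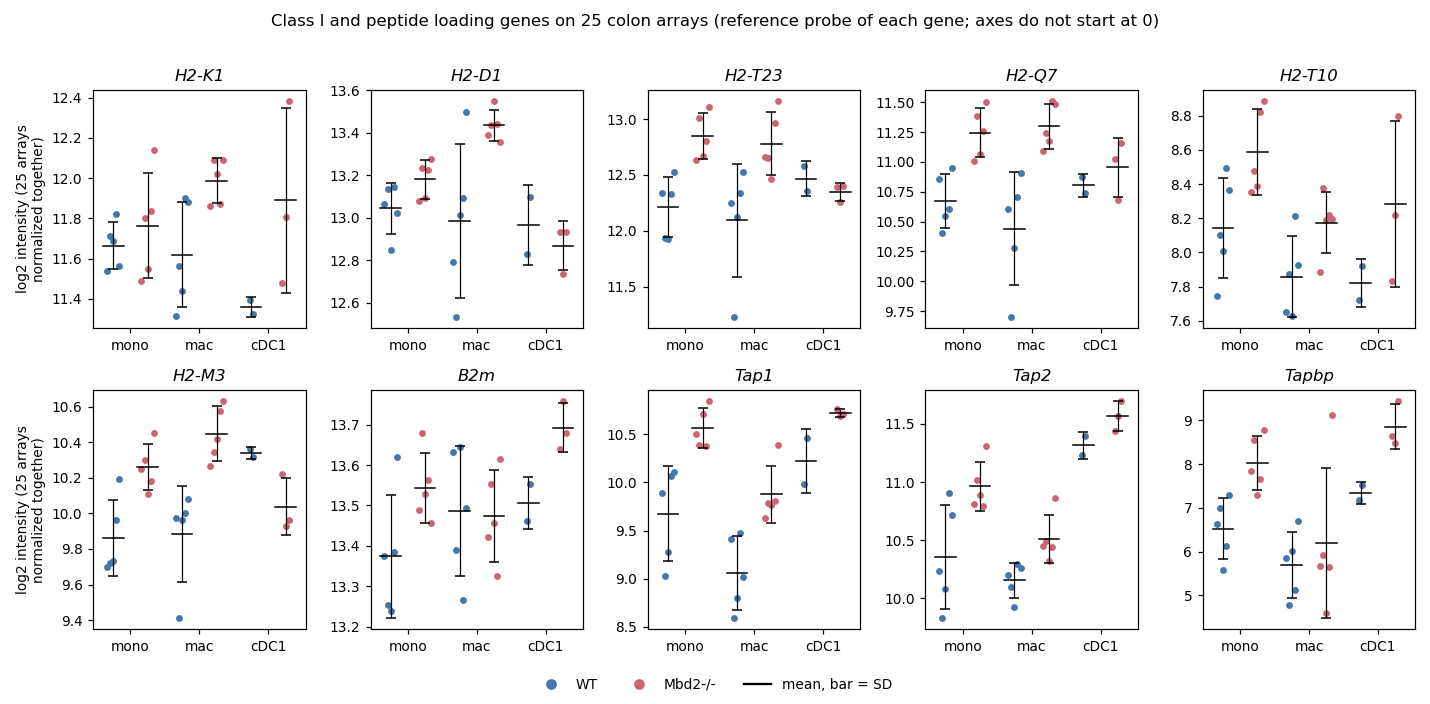
Log2 intensity of each member's reference probe (y axis, a scale of its own in each panel) on the 25 colon arrays, by cell type (x axis) and genotype (WT blue, Mbd2-/- red). Each point is an array, horizontal lines are group means and bars are standard deviations (n = 5, 5, 5, 5, 2 and 3 arrays). Tap1 in monocytes, and Tap1, H2-Q7 and H2-M3 in macrophages, have no overlap between genotypes, while B2m overlaps in both cell types.

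In macrophages, H2-Q7, H2-M3, H2-T23, H2-D1 and Tap1 were higher in Mbd2-/- mice at their reference probes. In all, 8 of 19 member probes, from 7 of the 10 genes, were called higher and none lower, where 3.46% of all 16834 probes were called higher. The other 3 were a second H2-T23 probe and dimmer probes of H2-K1 and H2-T10. In 13 of 19 the unadjusted p was under 0.05, against 25.3% of all probes. The median over reference probes was 0.47 against -0.07 for all probes, and 18 of 19 probes lay above 0, also with median scaling, under which 1 probe was called.

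H2-Q7, the Qa-2 chain, had the smallest adjusted p, with a rise of 0.86 (SE 0.17, 95% interval 0.50 to 1.22, adjusted p = 0.00705), or 1.82-fold. Its log2 intensities were 10.60, 9.70, 10.28, 10.71 and 10.91 on WT macrophage arrays 11 to 15 and 11.10, 11.24, 11.17, 11.51 and 11.48 on Mbd2-/- arrays 16 to 20. All Mbd2-/- arrays lay above all WT arrays, and WT array 12 was far below the rest. The other H2-Q7 probes, both dimmer, did not pass and their groups overlapped. They differed by 0.81 (limma adjusted p = 0.0713) and 0.45 (adjusted p = 0.261). H2-M3 rose by 0.56 (SE 0.12, interval 0.32 to 0.80, adjusted p = 0.00896). It read 9.97, 9.41, 9.96, 10.00 and 10.08 on the WT arrays and 10.27, 10.35, 10.42, 10.58 and 10.63 on the Mbd2-/- arrays, again with no overlap and with array 12 lowest.

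Tap1 rose by 0.82 in macrophages (SE 0.21, interval 0.39 to 1.24, adjusted p = 0.0235). The WT arrays read 9.41, 8.59, 8.80, 9.48 and 9.02, and the Mbd2-/- arrays 9.63, 9.78, 9.77, 9.81 and 10.39. These groups also did not overlap, and array 20 stood above the other Mbd2-/- arrays. Tap2 differed by 0.36 (SE 0.16) without passing the test (adjusted p = 0.165), although its Mbd2-/- arrays (10.32 to 10.86) were all above its WT arrays (9.92 to 10.30). Of the 19 member probes, 6 had every Mbd2-/- macrophage array above every WT array, against 2.16% of all probes.

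H2-T23 rose by 0.69 (SE 0.19, adjusted p = 0.0335) at its reference probe and by 0.75 (adjusted p = 0.0256) at another. Its dimmest probe differed by 0.36 without passing (limma adjusted p = 0.0541). H2-D1 rose by 0.45 (SE 0.12, adjusted p = 0.027), from WT values of 12.79, 12.53, 13.01, 13.09 and 13.50 to 13.39, 13.44, 13.55, 13.44 and 13.36 on the Mbd2-/- arrays. WT array 15 lay within the Mbd2-/- range, so the H2-D1 groups overlapped, and a second bright H2-D1 probe differed by 0.77 without passing (adjusted p = 0.0604). For H2-K1 the probes differed in size as well as brightness: the bright reference probe by 0.37 (adjusted p = 0.119) and the dim one by 1.31 (SE 0.27, adjusted p = 0.00925). H2-T10 likewise passed only at its dimmer probe, with 0.67 (adjusted p = 0.018) against 0.32 (adjusted p = 0.244) at the reference probe. Class I genes are close in sequence and probe sequences were not used here, so which of the near-identical heavy chains a probe reads is uncertain.

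B2m, the light chain shared by all class I molecules, did not pass in macrophages, with a log2 difference of -0.01 and a 95% interval of -0.17 to 0.15. Its arrays read 13.63, 13.39, 13.65, 13.27 and 13.49 in WT and 13.42, 13.55, 13.46, 13.33 and 13.62 in Mbd2-/- mice, which overlapped throughout. B2m was the brightest member, with raw intensities of 9619 to 14983 at this probe, against a highest raw value of 12980 to 23919 for any probe on the same arrays. Whether B2m was near the upper limit of the scanner's range was not tested. Tapbp differed by 0.50 (SE 0.59, adjusted p = 0.629) and turned on 1 array: Mbd2-/- array 20 read 9.12 and the other Mbd2-/- arrays 4.60 to 5.93, and without array 20 the difference was -0.23. Its second probe differed by 0.16 (adjusted p = 0.779).

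The macrophage count also changed with the arrays in the fit. Dropping WT array 12 or Mbd2-/- array 20 left 3 called probes, dropping Mbd2-/- array 19 left 5, and dropping WT array 15 gave 11. Without array 12 the rise of H2-Q7 was 0.68 and that of H2-M3 0.44. Tap1 did not pass without array 12 (a difference of 0.70, limma adjusted p = 0.0790) or without array 20 (0.69, adjusted p = 0.0782). H2-Q7 and H2-M3 passed in each of the 10 fits that left out 1 array, Tap1 in 8, H2-T23 in 7 and H2-D1 in 5. The number of all probes called also changed over these fits, from 404 to 1931, against 1214 with every array. When macrophage arrays were normalized and fitted alone, no member probe was called, and the log2 differences changed little (H2-Q7 0.84, adjusted p = 0.0725; H2-M3 0.55, adjusted p = 0.0644; Tap1 0.80, adjusted p = 0.0712). The epithelial list mean ranged from 7.87 to 9.56 on WT and from 8.44 to 9.35 on Mbd2-/- macrophage arrays.

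**Figure D2:**
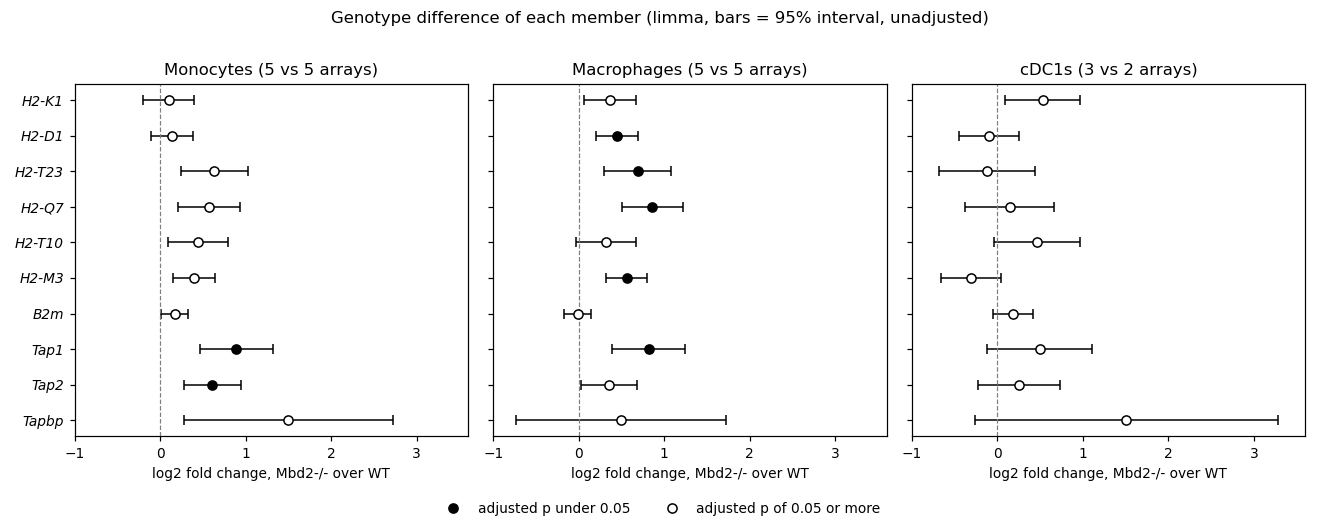
Log2 fold change of each member's reference probe, Mbd2-/- over WT (x axis), with unadjusted 95% intervals from limma, in monocytes, macrophages and cDC1s. Filled points passed an adjusted p of 0.05 over all probes: Tap1 and Tap2 in monocytes, H2-D1, H2-T23, H2-Q7, H2-M3 and Tap1 in macrophages, and none in cDC1s. With median scaling H2-K1, H2-D1 and B2m in monocytes, and H2-Q7, H2-T10 and Tap2 in cDC1s, fall below 0.

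Within the runs of 6 columns, the genotype difference was much larger in 1 run of each cell type than in the other. In monocytes, the run with WT arrays 1, 2 and 3 and Mbd2-/- arrays 9 and 10 gave a median difference of 0.84 over the 10 reference probes, with the Mbd2-/- arrays above the WT arrays for 10 of 10. The run with WT arrays 4 and 5 and Mbd2-/- arrays 6, 7 and 8 gave 0.12, with 8 of 10 higher on average and 3 of 10 not overlapping. The genes that stayed apart in both runs were H2-T23, H2-Q7 and Tap1, and for Tap1 the difference was 1.21 in one and 0.45 in the other. For either cell type, the share of all probes without overlap within a run is not given here. The shares given above are for whole groups, and groups as small as those in a run separate more easily.

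Macrophages showed the same division. The run with WT arrays 11, 12 and 13 and Mbd2-/- arrays 19 and 20 gave a median of 0.72, with 9 of 10 genes higher and 8 not overlapping, and the run with WT arrays 14 and 15 and Mbd2-/- arrays 16, 17 and 18 gave 0.15, with 9 of 10 higher and 4 not overlapping. H2-Q7 differed by 1.31 and 0.36, H2-M3 by 0.82 and 0.30, Tap1 by 1.16 and 0.48, and Tap2 by 0.58 and 0.14 in these runs. These 4 genes had no overlap in either, a count that again has no share over all probes beside it. H2-T23 differed by 1.20 in one run and by 0.16 in the other, where its arrays overlapped. With the run as a term in the fit, 8 macrophage probes were called, while in monocytes only 1 was. The shares of all probes called in that fit are not given here, so these counts have no background beside them.

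**Figure D3:**
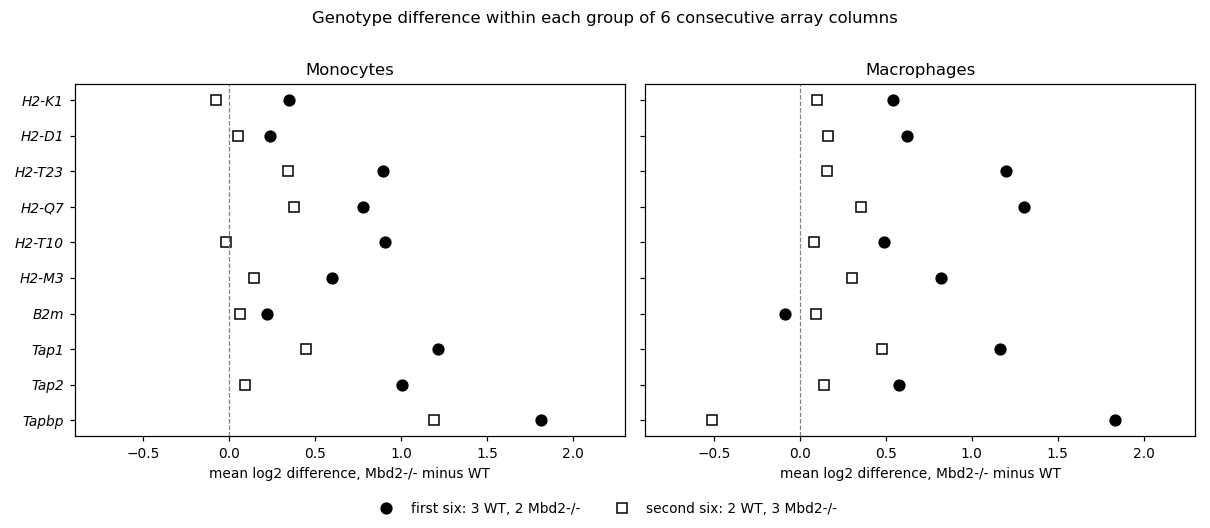
Mean log2 difference, Mbd2-/- minus WT (x axis), of each member's reference probe within each run of 6 array columns, for monocytes and macrophages. Filled circles are the runs with 3 WT and 2 Mbd2-/- arrays, open squares those with 2 WT and 3 Mbd2-/- arrays. The medians over the 10 genes are 0.84 and 0.12 in monocytes and 0.72 and 0.15 in macrophages.

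In cDC1s no member passed the test. None of 20 member probes was called, against 8.63% of all 17838 probes called in either direction, and 1 had an unadjusted p under 0.05, against 25.8%. That probe was the H2-K1 reference probe, which differed by 0.53 (SE 0.21, 95% interval 0.10 to 0.97, adjusted p = 0.113) and read 11.40 and 11.32 on WT arrays 23 and 26 and 11.48, 11.80 and 12.39 on Mbd2-/- arrays 27, 28 and 30. The spread among the Mbd2-/- arrays exceeded the gap to WT. Log2 differences were above 0 for 10 of the 20 probes, and the median over reference probes was 0.22 against 0.03 over all probes.

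At some probes the cDC1 groups did not overlap, at a share not far from that of all probes. Of the 20 member probes, 5 had every Mbd2-/- array above both WT arrays, against 16.9% of all probes, and 3 had every one below, against 14.8%. Tap1 read 9.99 and 10.46 in WT and 10.76, 10.69 and 10.71 in Mbd2-/- cDC1s, a difference of 0.50 with an interval of -0.12 to 1.11, or 0.26 without the noisier WT array 23. Tapbp read 7.17 and 7.51 in WT and 8.64, 8.48 and 9.44 in Mbd2-/- cDC1s, a difference of 1.51 with an interval of -0.26 to 3.28. The second Tapbp probe had the opposite sign, at -0.74 (interval -1.66 to 0.18), and its groups overlapped. H2-M3 read 10.36 and 10.32 in WT and 10.22, 9.93 and 9.96 in Mbd2-/- cDC1s, a difference of -0.30 (interval -0.65 to 0.05). With 2 WT arrays the intervals are wide, and the WT and Mbd2-/- cDC1 arrays lay in different runs of columns, so that genotype and run cannot be told apart.

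The genotype effects of the cell types were compared directly. These comparisons use the same arrays as those above and are not separate evidence. Between macrophages and monocytes, limma called 0 of 20 member probes different, and 0 of 20 had an unadjusted p under 0.05, against 0.0372% of all probes called and 8.17% at the unadjusted threshold. The interval of the difference was -0.68 to 0.53 for Tap1, -0.22 to 0.80 for H2-Q7, -0.18 to 0.51 for H2-M3 and -0.72 to 0.21 for Tap2, which leaves room for differences of the size of the effects themselves. Between cDC1s and monocytes, none of 20 was called and 4 had an unadjusted p under 0.05, against 1.62% called and 17.7% at the unadjusted threshold among all probes.

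Between cDC1s and macrophages, 2 of 20 member probes had a lower genotype effect in cDC1s, against 3.76% of all probes. H2-M3 rose in Mbd2-/- macrophages and had a difference of -0.30 in cDC1s, and the effects differed by -0.86 (SE 0.20, interval -1.29 to -0.44, adjusted p = 0.0182). The dim H2-K1 probe differed by 1.31 in macrophages and by -0.33 in cDC1s, a gap of -1.64 (adjusted p = 0.0418), while for the bright H2-K1 probe the gap was 0.16 (interval -0.37 to 0.69). Neither call held when the compared cell types were normalized and fitted alone. Leaving out 1 array gave 0 to 3 called probes, with 0 without WT cDC1 array 23, 3 without WT macrophage array 15, and 1 without WT macrophage arrays 11 or 13, Mbd2-/- macrophage arrays 19 or 20, or Mbd2-/- cDC1 arrays 27, 28 or 30.

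Members were also compared between cell types over both genotypes. Compared with monocytes, macrophages were lower for 6 of 20 member probes from 5 genes, against 16.3% of all probes called lower. Tapbp fell by 1.33 (SE 0.42, adjusted p = 0.0153), Tap1 by 0.65 (SE 0.15, adjusted p = 0.00117), H2-T10 by 0.35 (adjusted p = 0.0248) and Tap2 by 0.33 (adjusted p = 0.027), and no member was called higher. The other calls were a second H2-T10 probe (-0.36, adjusted p = 0.0158) and a dim H2-Q7 probe (-0.50, adjusted p = 0.0296). At their reference probes H2-K1, H2-D1, H2-T23, H2-Q7, H2-M3 and B2m differed by 0.11 or less in size, and the second Tapbp probe differed by -0.32 (adjusted p = 0.274).

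Compared with macrophages, cDC1s were higher for 5 of 20 probes, against 23.2% of all probes called higher, and lower for 1, against 20.3%. Tap2 was 1.11 higher (SE 0.14, adjusted p = 8.92e-07), with every cDC1 array (11.23 to 11.69) above every macrophage array (9.92 to 10.86). Tapbp was 2.15 higher (SE 0.52, adjusted p = 0.0017), or 1.05 at its second probe (adjusted p = 0.00286), and Tap1 1.00 higher (SE 0.18, adjusted p = 8.81e-05). The dimmest H2-T23 probe was 0.25 higher (limma adjusted p = 0.0429), while the H2-T23 reference probe differed by -0.03 (adjusted p = 0.909). H2-D1 was 0.29 lower at its reference probe (adjusted p = 0.0246), but its other bright probe differed by 0.09 (adjusted p = 0.78). Compared with monocytes, cDC1s were higher for 3 of 20 probes, against 24% of all probes. Tap2 was 0.78 higher (SE 0.14, adjusted p = 7.43e-05), the second Tapbp probe 0.73 higher (adjusted p = 0.0315) and the dimmest H2-T23 probe 0.27 higher (adjusted p = 0.0342). The reference probes of Tapbp (0.82, adjusted p = 0.214) and H2-T23 (-0.12, adjusted p = 0.593) did not pass.

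The direction of the cDC1 comparisons depended on the scaling. Under median scaling the median of all probes moved by -0.15 for cDC1s against monocytes and by -0.14 for cDC1s against macrophages. In the first of these, 10 member probes were then called, all lower in cDC1s, with Tap2 at 0.15 and Tap1 at -0.28, and in the second 3 were called higher and 4 lower. Without median scaling, 20.5% of all probes were called lower in cDC1s than in monocytes. The shares of all probes called under median scaling are not given here, so these member counts have no background beside them. Against macrophages, Tap2 (0.58, adjusted p = 0.0126) and Tapbp (1.75, adjusted p = 0.00784) still passed, and Tap1 did not (0.45, adjusted p = 0.0894).

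The other genes of the pathway were counted from lists of neighbours in function. Of 8 tested further class I heavy chain genes, 1 was called higher in Mbd2-/- monocytes, against 1.06% of all probes. It was H2-Q5 (0.93, adjusted p = 0.0222). In macrophages 3 of 8 were called higher, against 3.46% of all probes. They were H2-Q8 (1.70, adjusted p = 0.0186), H2-Q6 (1.18, adjusted p = 0.0257) and H2-K2 (0.86, adjusted p = 0.0448), all close relatives of the members in sequence. None of the 8 was called in cDC1s, against 8.63% of all probes called in either direction.

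Genes that supply peptides were called in part. Psmb9, which encodes an immunoproteasome subunit and starts 225 bases from Tap1, rose by 0.62 in monocytes (adjusted p = 0.0234) and by 0.54 in macrophages (adjusted p = 0.03), and differed by 0.24 in cDC1s (adjusted p = 0.5). Of 9 proteasome and activator genes tested, 2 were called higher in monocytes (Psmb9 and Psmb10, the latter 0.60, adjusted p = 0.0479). In macrophages 2 were (Psmb9 and the constitutive subunit gene Psmb7, 0.29, adjusted p = 0.0454) and in cDC1s 1 was (the constitutive Psmb5, 0.81, adjusted p = 0.0443). Of all probes, 1.06%, 3.46% and 4.56% were called higher in monocytes, macrophages and cDC1s. Of 7 loading chaperone and trimming genes, Tapbpl, a tapasin relative that edits peptides, was called higher in monocytes (0.76, adjusted p = 0.026), and none was called in macrophages or cDC1s.

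Among 18 tested regulators of class I transcription and interferon signalling, the kinase gene Jak2 was the only one called in cDC1s, and it fell by 0.95 (adjusted p = 0.00975). Of all probes, 4.06% were called lower in cDC1s and 8.63% in either direction. The class I transactivator gene Nlrc5 differed by 0.43 in monocytes and by 0.31 in macrophages, and neither passed (adjusted p = 0.302 and 0.347). Of 9 MHC class II genes, 0 were called in limma in each of the 3 genotype comparisons, with medians of 0.01, 0.05 and -0.01 in monocytes, macrophages and cDC1s. The median of the cross-presentation genes was 0.02, -0.14 and 0.10, with none called. In the same order, 2.37%, 7.21% and 8.63% of all probes were called in either direction.

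Across the 25 colon arrays the members did not vary as 1 block. H2-T23 and H2-Q7 were the closest pair, with a Pearson correlation of 0.95 in levels and 0.92 in deviations from the group means, followed by Tap1 and Tap2 in levels (0.88 and 0.79) and H2-T23 and H2-M3 (0.87 and 0.85). The 25 arrays share their normalization and their runs of columns. Among 8772 probes of other genes detected on all 25 arrays, those most like the members' mean level were H2-Q8 (0.96), 0610037M15Rik (0.94), H2-Q6 (0.90), Indo (0.87, now Ido1) and EG667977 (0.86, now Gm8909). By deviations from group means they were H2-Q8 (0.92), Oas1g (0.92), 0610037M15Rik (0.89), LOC100045567 (0.87) and LOC100038882 (0.87). Several of these are class I genes themselves, and 0610037M15Rik is listed as a synonym of H2-Q6, and whether shared probe sequence adds to the likeness was not tested.

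Splenic CD4 T cells had 1 array per genotype, so their differences have no replicate check and no test. H2-K1 (12.78 in WT and 12.92 in Mbd2-/- cells), H2-Q7 (12.29 and 12.66) and H2-T10 (9.49 and 9.76) were brighter on both T cell arrays than on all 25 colon arrays, when all 27 arrays were normalized together. H2-K1 reached at most 12.34, H2-Q7 11.47 and H2-T10 8.86 on a colon array. At the reference probes of the other members some colon arrays were as bright: Tapbp was dimmer than on both T cell arrays on 14 of the 25 colon arrays, and Tap1 on 12. The second Tapbp probe and a second H2-T23 probe were dimmer than on both T cell arrays on all 25 colon arrays.

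Between the T cell arrays, 9 of 10 reference probes were brighter on the Mbd2-/- array, against 48.8% of the 19937 probes detected on either array. H2-D1 was dimmer (13.23 and 13.14), as was its other bright probe (13.47 and 13.34). Among reference probes the largest difference was that of Tap1, at 9.87 in WT and 10.98 in Mbd2-/- cells, or 1.11. It was the only reference probe past a log2 difference of 1, as were 3.67% of the detected probes. At their reference probes Tapbp differed by 0.76 and H2-Q7 by 0.37. A dim H2-Q7 probe differed more than Tap1, by 1.50 (6.66 and 8.16), and the dim H2-K1 probe by 0.95. Under median scaling 2 of 10 reference probes were brighter on the Mbd2-/- array, Tap1 (0.28) and Tapbp (0.06). The median of the probes detected on either T cell array was then -0.38. The neutrophil marker list read 8.66 on the WT and 6.79 on the Mbd2-/- T cell array, against at most 5.66 on a colon array, and its part in the T cell values was not tested.

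**Figure D4:**
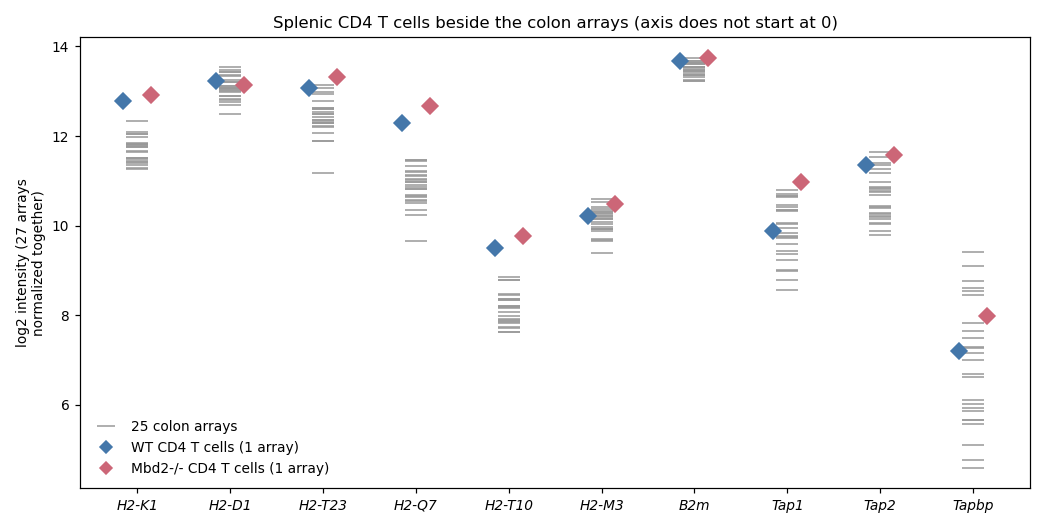
Log2 intensity (y axis, 27 arrays normalized together) of each member's reference probe on the WT (blue) and Mbd2-/- (red) arrays of splenic CD4 T cells, 1 array each, beside the 25 colon arrays (grey dashes). H2-K1, H2-Q7 and H2-T10 lie above every colon array on both T cell arrays, and Tap1 has the largest gap between the T cell arrays (1.11), which is 0.28 under median scaling.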

How the data were processed

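The deposited table holds Illumina MouseWG-6 BeadChip intensity values, which per the file headers the authors exported as mean bead brightness without background subtraction or normalization, with a detection p-value per probe from each array's negative controls; bead standard errors and numbers were also deposited. The submitters' notes name lumi and limma, with no version. RNA kits differed between the methods and the record. Another 3 signal columns belong to no sample here and were not used.

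Background was modelled on the table's 936 negative controls (limma's nec, normexp, offset 16) and values were quantile normalized and put on a log2 scale over the 25 colon arrays, and over 27 for T cells. One limma model (version 3.58.1, R 4.3.3) was fitted to 6 colon groups. A probe was tested where the count of arrays with a detection p under 0.05 reached the size of the smaller group, with Benjamini-Hochberg adjustment within each comparison over all of them and a threshold of 0.05. Array numbers are unique in the labels and do not pair samples. Since the labels do not say which arrays are separate pools of animals, p-values measure the spread between these arrays and few arrays limit its precision. The fit was also run on simulated data with independent noise per probe and array. Those data held no effect of column run or of single arrays, so they cannot show how the fit behaves with such effects. Members, context lists and alternatives were chosen with earlier results of these data known. All 10 members were named by their reference probe, context genes where they passed the threshold, and like genes as the 5 highest correlations. Nlrc5 was named after its values were seen. Some results for the list of regulators are not reported here. Alternatives changed the background correction, normalization, filter, threshold, arrays fitted, weights, column run and single arrays; differences within runs were added after seeing the data. Promoters came from RefSeq (GRCm38.p6).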

Additional observations from a re-analysis of the deposited data

Results flagged for a closer look

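In WT macrophages, H2-M3 read 9.41 on array 12, farther from the other 4 arrays than a group of 5 usually allows (gap over range 0.828, limit 0.71). In Mbd2-/- macrophages, Tap1 read 10.39 on array 20 (gap over range 0.77). Of 40 member and group pairs examined, 2 passed the limit, and chance gives about 1 in 20. Both arrays take part in the macrophage calls given above.

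The genotype effect on H2-M3 was lower in cDC1s than in macrophages by a log2 difference of -0.86 (adjusted p = 0.0182, limma). For the dim H2-K1 probe the difference was -1.64 (adjusted p = 0.0418), while the bright H2-K1 probe gave 0.16.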

How the results depend on the processing

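The number of called member probes was 2 in monocytes, 8 in macrophages, 0 in cDC1s, 2 for the effect in cDC1s minus macrophages, 6 for macrophages against monocytes, 3 for cDC1s against monocytes and 6 for cDC1s against macrophages. Median scaling gave 0, 1, 0, 3, 3, 10 and 7 in that order, and 2 in place of 9 brighter T cell genes. No filter gave 0 in monocytes, 4 in macrophages, 1 for the effect in cDC1s minus macrophages, 3 for macrophages against monocytes and 1 for cDC1s against monocytes. An adjusted p under 0.01 gave 0, 3, 0, 1 and 1 for these, and a log2 fold change of at least 1 gave 0, 1, 1, 1 and 0. Cell types fitted alone gave 0 in macrophages, 0 for cDC1s minus macrophages and 6 for cDC1s against monocytes. Cyclic loess gave 1 for cDC1s minus macrophages, and array weights 0 there and 10 in monocytes. The column run as a fixed term gave 1 in monocytes. Leaving out 1 array gave 0 to 3 in monocytes, 3 to 11 in macrophages, 0 to 1 in cDC1s, 0 to 0 and 0 to 1 for the effects in macrophages and in cDC1s minus monocytes (1 without WT monocyte array 5, WT cDC1 array 26 or Mbd2-/- cDC1 array 27), 0 to 3 for cDC1s minus macrophages, and 3 to 6, 1 to 5 and 3 to 7 for the cell type comparisons. Without Mbd2-/- monocyte array 10, 3 were called for macrophages against monocytes. For cDC1s against monocytes it was 1 without WT monocyte array 3, Mbd2-/- monocyte array 6 or 8, or WT cDC1 array 23, and 5 without WT cDC1 array 26. For cDC1s against macrophages it was 3 without WT cDC1 array 23. The cause of these changes was not tested. With 1 array left out, calls over all probes ranged from 183 to 523 in monocytes and from 404 to 1931 in macrophages. For the other alternatives and comparisons in this paragraph, calls over all probes are not given here. Their member counts may move with those calls and have no background beside them.

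Log2 differences changed sign under median scaling for H2-K1 (-0.17), H2-D1 (-0.025) and B2m (-0.017) in monocytes and for H2-Q7 (-0.31), H2-T10 (-0.19) and Tap2 (-0.14) in cDC1s. With cyclic loess they changed sign for B2m (0.078) in macrophages and H2-D1 (0.15) and H2-T23 (0.064) in cDC1s. Within a run of columns they changed sign for H2-K1 (-0.080) and H2-T10 (-0.020) in monocytes and for B2m (0.10) and Tapbp (-0.51) in macrophages. Without 1 array, B2m in macrophages ranged from -0.067 to 0.028, Tapbp there from -0.23 to 0.89 and H2-D1 in cDC1s from -0.23 to 0.037. In cDC1s, H2-K1 passed without Mbd2-/- array 27 (0.73). No paired analysis was possible because array numbers in the labels are unique to each sample. Intensities near background, as for Tapbp, limit precision.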
